A study of Rattus norvegicus with 4 samples.

Results

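The 10 genes described here encode neuropeptide precursors that are not used as markers of interneuron classes: Oxt, Avp, Pomc, Trh, Gal, Penk, Pdyn, Tac1, Adcyap1 and Nts. They were found by matching the gene symbol of each row, and all 10 were present among the 17445 rows listed for at least 1 library. Of these, 9 were listed for all 4 libraries and Oxt was listed for the males only. RNA-seq libraries had been made from the hippocampus of Wistar rat pups on postnatal day 1, with 1 control and 1 BPA library from each sex, and each library was a pool of 3 hippocampi. Bisphenol A (BPA), a plasticizer with estrogenic activity, had been given by mouth every day to the dams of the BPA pups at 5000 µg/kg body weight, from gestation day 1 to birth, and the dams of the control pups had received the vehicle in the same way. The dams were 10 weeks old according to the sample records, and the pups themselves received no treatment. The pups thus met BPA only through the mother, and no group has a second library. Where the records describe a pool, the study's text speaks of separate pups from independent litters, and the files hold a single value per gene for each sex and treatment. The study asked how prenatal BPA exposure changes the hippocampal transcriptome in each sex.

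Neuropeptides are made as long precursors that are cut at basic residues in the secretory pathway, packed into dense core vesicles and released to act on receptors, most of which are coupled to G proteins. Oxt, Avp, Trh, Pomc and Gal are known above all from neurons of the hypothalamus, while Penk, Pdyn, Tac1, Adcyap1 and Nts are also transcribed by neurons of the forebrain. In the hippocampus, dynorphin from Pdyn is a classic peptide of granule cells, enkephalin from Penk is found in granule cells and in some interneurons, and neurotensin from Nts is known from neurons of the subiculum and adjoining areas.

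The 3 members with a mean of at least 5 FPKM (a level per kilobase of transcript that is corrected for library depth) are shown with the 250 bases before their start site, since they carry most of the signal described below. The sequences are those of RefSeq on the build GRCr8, which held such a promoter for 9 of the 10 members, and run 5′ to 3′ on the strand of the gene. The window of Nts is chr7:39460889-39461138 on the minus strand, that of Adcyap1 chr9:120556474-120556723 on the minus strand and that of Tac1 chr4:36645333-36645582 on the plus strand. Capitals mark the letters of the motifs searched on both strands.
Nts: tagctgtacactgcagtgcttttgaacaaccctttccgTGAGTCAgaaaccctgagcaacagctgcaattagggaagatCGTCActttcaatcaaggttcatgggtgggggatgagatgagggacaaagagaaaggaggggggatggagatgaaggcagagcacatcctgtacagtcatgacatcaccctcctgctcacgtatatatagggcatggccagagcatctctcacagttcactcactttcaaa
Adcyap1: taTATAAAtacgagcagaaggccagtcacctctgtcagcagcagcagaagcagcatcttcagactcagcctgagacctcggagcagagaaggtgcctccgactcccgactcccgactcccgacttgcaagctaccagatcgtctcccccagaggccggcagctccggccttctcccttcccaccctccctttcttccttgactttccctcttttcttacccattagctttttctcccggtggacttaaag
Tac1: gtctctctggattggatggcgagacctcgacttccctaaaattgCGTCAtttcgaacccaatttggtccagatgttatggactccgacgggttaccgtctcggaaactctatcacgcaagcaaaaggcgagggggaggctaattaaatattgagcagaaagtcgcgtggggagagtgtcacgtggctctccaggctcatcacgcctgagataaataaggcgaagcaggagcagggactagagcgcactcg

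The AP-1 motif TGANTCA occurred in the promoters of Avp and Nts, and in 6.34% of all 33469 promoters of this length. The core of a cAMP response element, TGACG, occurred in 5 of the 9 member promoters (Gal, Avp, Tac1, Trh and Nts) and in 18.2% of all. The letters TATAAA of a TATA box were found for 4 members (Gal, Pdyn, Pomc and Adcyap1) and in 12.9% of all, and those of Adcyap1 lay 248 bases before the start. In the Nts promoter the AP-1 letters began 212 bases and the TGACG letters, on the other strand, 171 bases before the start. The full estrogen response element GGTCANNNTGACC, the motif bound by estrogen receptors, was in 0 of the 9 and in 0.0239% of all. These matches describe letters in a fixed window and carry no information on binding.

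Depth was estimated from the steps between low values, at 8660000 to 8930000 fragments per library. The same steps give the number of fragments behind each value, and the 95% intervals below are exact Poisson intervals for levels and exact conditional binomial intervals for ratios of fragments, both for counting error only. The lowest listed value is 0.01 FPKM and stands for 0 fragments. As a check of the tissue, the forebrain neuron gene Neurod6 lay between 135 and 161 FPKM and the granule cell gene Prox1 between 7.61 and 12.8 FPKM over the 4 libraries, while Emx1, another gene of the hippocampal primordium, was not listed. The libraries differed in genes of adjoining tissue, which are given with the members they bear on.

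The precursors differed widely in level. Nts was far above the rest, at rank 506 of the 16375 rows listed for all libraries, and made up 82.8% to 86.8% of the summed FPKM of the members in each library. Adcyap1, Tac1 and Penk came next with means of 7.77, 6.41 and 4.25 FPKM, around or below the median row, which had a mean of 7.28 FPKM. Pdyn followed with a mean of 1.68 FPKM. Pomc, Gal, Avp and Trh had means of 0.725, 0.450, 0.440 and 0.340 FPKM, and 85.8% to 91.1% of the rows ranked above them. Among these low members the counting intervals of neighbouring genes overlapped in every library, so their order was not resolved, and those of Adcyap1 and Tac1 overlapped as well. FPKM is a level per length, so these values can be set side by side between genes.

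**Figure D1:**
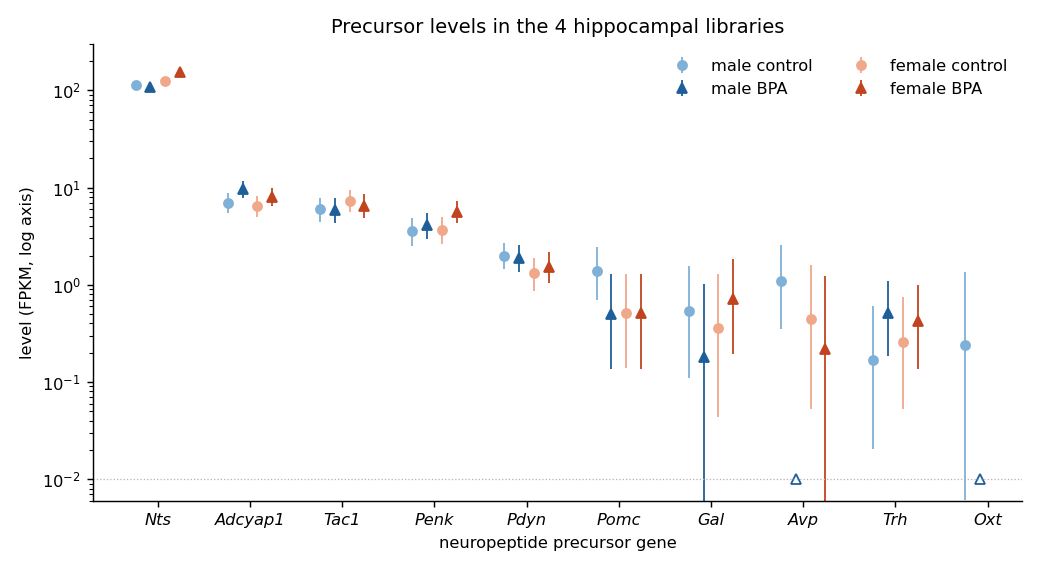
Level of each precursor (FPKM, log axis) in the control and BPA libraries of both sexes, with 95% Poisson intervals for counting error. Nts lies between 109 and 156 FPKM, the next 4 genes between 1.31 and 9.57 FPKM and the rest at or below 1.38 FPKM. Open symbols on the dotted line mark values listed at 0.01 FPKM, and Oxt has no value for females.

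Oxt (gene ID 25504), the precursor of oxytocin, was at 0.24 FPKM in male control and listed at 0.01 FPKM in male BPA. For this short transcript of 534 bases 1 fragment is worth 0.243 to 0.247 FPKM, so the male control value is 1 fragment and the male BPA value 0. The level of Oxt was at the limit of what these libraries can show, and no difference was detectable.

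Avp (gene ID 24221), the precursor of vasopressin, was at 1.09 FPKM in male control and listed at 0.01 FPKM in male BPA, and the control and BPA females had 0.44 and 0.22 FPKM. These levels are 5, 0, 2 and 1 fragments. Both BPA libraries were below both control libraries. The 95% interval of the count of 0 in male BPA reaches up to 0.818 FPKM. Counting error alone spans this difference, since the 95% interval of the BPA to control ratio was 0 to 1.11 in males. The ratio of the summed BPA to the summed control fragments was 0.144 (0.00319 to 1.12), and such an interval compares these libraries, not the treatments. On the scale of log2(FPKM + 1) the BPA minus control difference was -1.05 in males and -0.24 in females, and with 0.1 added in place of 1 it was -3.44 and -0.75.

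Pomc (gene ID 24664) encodes the common precursor of ACTH, melanocortins and beta-endorphin. It was at 1.38 FPKM in male control against 0.50 FPKM in male BPA, 0.51 FPKM in female control and 0.51 FPKM in female BPA, from 11, 4, 4 and 4 fragments. The male control library stood above the other three libraries, which were alike. The male BPA to control ratio was 0.366 with a counting interval of 0.0849 to 1.23.

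Trh (gene ID 25569), the precursor of thyrotropin-releasing hormone, was at 0.17 and 0.51 FPKM in control and BPA males and at 0.26 and 0.42 FPKM in control and BPA females. The values rest on 2, 6, 3 and 5 fragments. Both BPA libraries were above both controls, with 11 fragments in BPA against 5 in control. The ratio of the sums was 2.19, and its counting interval of 0.701 to 8.04 includes no difference.

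Gal (gene ID 29141) encodes galanin, a peptide that inhibits many of the neurons it acts on. It was at 0.54 and 0.18 FPKM in control and BPA males and at 0.36 and 0.72 FPKM in control and BPA females, or 3, 1, 2 and 4 fragments. The lower male library was the BPA one and the lower female library the control one. The counting intervals of the BPA to control ratio, 0.00642 to 4.19 in males and 0.286 to 22.0 in females, were wide.

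**Figure D2:**
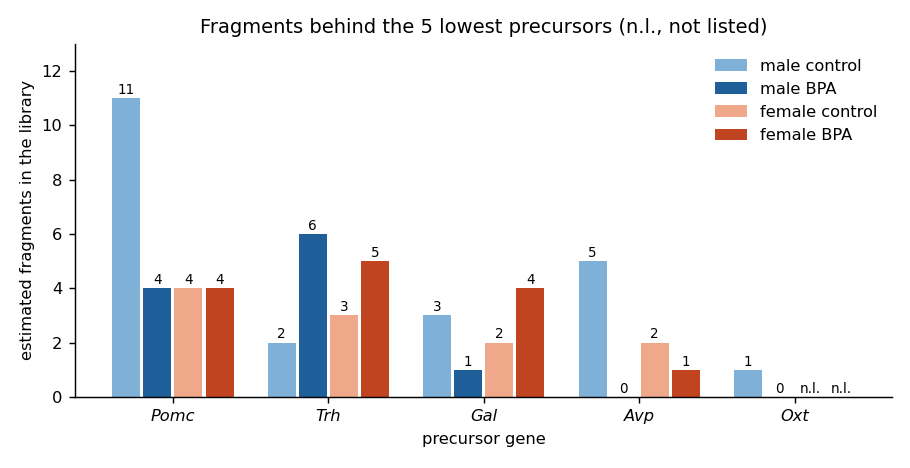
Estimated number of fragments behind the values of Pomc, Trh, Gal, Avp and Oxt in each library. The counts run from 0 to 11, and n.l. marks the female libraries in which Oxt is not listed.

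Since 5 members had so few fragments, those of neighbouring tissue markers are given beside them. Of 14 hypothalamic genes, 10 were listed and 4 of them for both sexes, with summed levels of 2.42 and 5.67 FPKM in control and BPA males and 1.96 and 2.34 FPKM in control and BPA females. The higher sum in male BPA came from Fezf1, a transcription factor gene of the ventromedial hypothalamus and of the olfactory system, which was at 0.05 FPKM in male control and 1.97 in male BPA, and from Otp, a factor of neurosecretory neurons, at 0.01 and 0.85 FPKM. Neither is listed for females. Nkx2-1, the only gene of the list with a mean of at least 1 FPKM over the 4 libraries, went the other way in males. It was at 1.70 and 1.42 FPKM in control and BPA males and at 0.77 and 0.92 FPKM in control and BPA females. The male BPA library had the highest sum of hypothalamic markers and no Oxt or Avp fragment. The part of such tissue in the levels of Oxt and Avp was not tested. Hcrt and Agrp, peptide genes of the hypothalamus, were at most 0.22 and 0.20 FPKM, Pmch lay between 0.17 and 0.34 FPKM, and Rax, Six6, Hmx2 and Hmx3 have no row. Of 9 pituitary genes, 4 were listed, with sums of 0.72 to 1.54 FPKM, and the hormone genes Gh1, Prl, Tshb, Cga and Fshb have no row. In pooled tissue, fewer cells of a type and less RNA per cell cannot be told apart.

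The opioid precursors were the next group. Penk (gene ID 29237), the precursor of the enkephalins, was at 3.54 FPKM (95% interval 2.52 to 4.84) in male control and 4.09 FPKM (2.99 to 5.48) in male BPA. In females it was at 3.69 FPKM (2.64 to 5.03) in control and 5.67 FPKM (4.34 to 7.25) in BPA. The BPA libraries were both above the controls, with a wider gap in females. The ratio of fragments was 1.16 in males (0.737 to 1.82), 1.53 in females (1.01 to 2.34) and 1.35 over the summed libraries (0.999 to 1.83, 107 against 79 fragments). With limma, 2 BPA against 2 control libraries, the log2 difference of Penk was 0.34 (standard error 0.195, adjusted p 0.973), which did not pass the threshold. It was 0.14 without the female BPA library and 0.53 without the male BPA library.

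Pdyn (gene ID 29190), the precursor of dynorphins, was at 1.99 and 1.90 FPKM in control and BPA males and at 1.31 and 1.53 FPKM in control and BPA females, from 42, 40, 27 and 32 fragments. Here the libraries separated by sex, with both males above both females. The male to female ratio of the summed fragments was 1.37 with a counting interval of 0.969 to 1.95, and limma gave a log2 difference of 0.28 (standard error 0.228, adjusted p 0.698). For BPA against control the difference was 0.04 (standard error 0.252, adjusted p 0.991 with limma), and it was -0.14 without the female control library and -0.05 without the male BPA library.

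Tac1 (gene ID 24806) encodes substance P and neurokinin A. Its levels were 5.98 and 5.85 FPKM in control and BPA males against 7.30 and 6.52 FPKM in control and BPA females. Within each sex control and BPA were close, and both females were above both males. The male to female ratio was 0.862 (counting interval 0.652 to 1.14), and the limma differences were -0.19 between the sexes (standard error 0.147, adjusted p 0.686) and -0.08 between BPA and control (standard error 0.162, adjusted p 0.988). The latter was 0.04 without the female control library.

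Adcyap1 (gene ID 24166) is the precursor of PACAP, a peptide that raises cyclic AMP in neurons and promotes their survival. Its levels were 6.98 FPKM (5.49 to 8.78) in male control, 9.57 FPKM (7.79 to 11.6) in male BPA, 6.43 FPKM (4.99 to 8.17) in female control and 8.09 FPKM (6.45 to 9.99) in female BPA. Both BPA libraries were above both controls, by a similar factor in the sexes. The fragment ratio was 1.37 in males (1.00 to 1.87), 1.25 in females (0.900 to 1.75) and 1.31 over the summed libraries (1.05 to 1.65, 186 against 141 fragments). In the main limma fit Adcyap1 had the largest BPA difference of the members tested, 0.35 on the log2 scale (standard error 0.15, unadjusted p 0.0547, adjusted p 0.973). Penk was close at 0.34, so their order was not resolved. Penk was ahead with 0.1 added in place of 1 (0.40 against 0.39) and without the male BPA library (0.53 against 0.24). The highest Adcyap1 library, male BPA, had the highest sum of choroid plexus markers, 712 FPKM, and the lowest, female control, the lowest, 11.3 FPKM. Between the other libraries Adcyap1 was higher in female BPA, but the sum was higher in male control, at 269 against 49.2 FPKM. Ttr alone was at 690 FPKM in male BPA and 3.96 FPKM in female control. Ttr, Otx2 and Kcne2 were lowest in female control, and the other genes of that list were lowest in female BPA. The part of that tissue in Adcyap1 was not tested. Over 10 alternatives, which also left out each library, the difference ran from 0.24 to 0.46 and the adjusted p from 0.533 to 1.

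Nts (gene ID 299757), the precursor of neurotensin and neuromedin N, was at 114 FPKM (106 to 122) in male control and 109 FPKM (101 to 117) in male BPA. In females it was at 126 FPKM (117 to 135) in control and 156 FPKM (146 to 166) in BPA. Female BPA was the highest library and both females were above both males. With 697 to 1001 fragments a library, counting error was small here. In females the BPA to control ratio was 1.24 (1.13 to 1.36), in males it was 0.955 (0.860 to 1.06). Between the sexes the ratio of males to females was 0.906 (0.819 to 1.00) for the control libraries and 0.698 (0.633 to 0.770) for the BPA libraries.

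For Nts, limma gave a male minus female difference of -0.33 on the log2 scale (standard error 0.109, unadjusted p 0.0208, adjusted p 0.389), and over 10 alternatives it stayed between -0.48 and -0.18 with an adjusted p of 0.201 to 0.956. The BPA difference of Nts was 0.12 (standard error 0.172, adjusted p 0.981 with limma) and -0.14 without the female BPA library. The pyramidal neuron gene Neurod6 was also highest in female BPA, at 161 FPKM, against 141 FPKM in female control and 135 and 138 FPKM in control and BPA males. The granule cell gene Prox1 was lowest in female BPA, at 7.61 FPKM. Their part in the level of Nts was not tested.

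**Figure D3:**
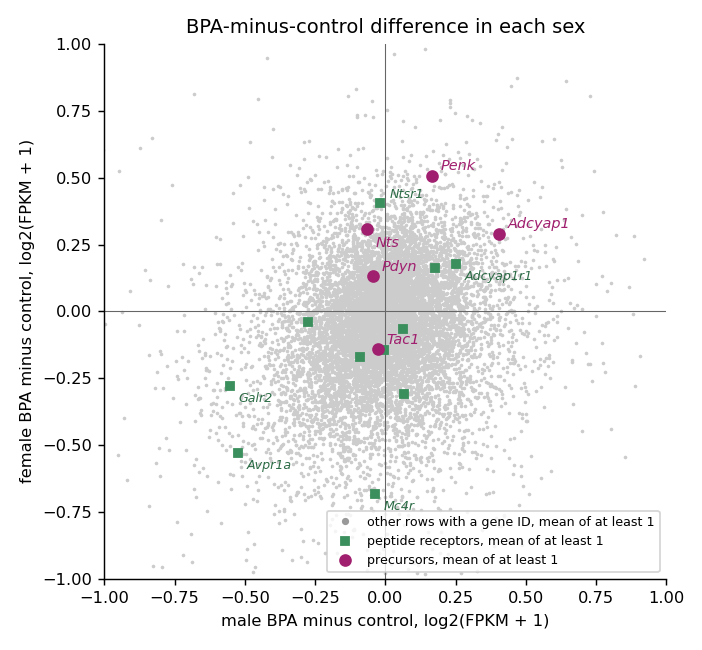
BPA minus control difference of log2(FPKM + 1) in males (x axis) and females (y axis), for the 5 precursors and 11 peptide receptors with a mean of at least 1 FPKM, against all rows with a gene ID and such a mean (grey, 95 of 10857 lie beyond the axes). Penk and Adcyap1 lie in the upper right quadrant, and Nts and Pdyn are above 0 in females only.

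The calls over all rows set the scale for these differences. Of 13542 rows with a mean of at least 1 FPKM, limma called 0 (0%) for BPA against control at an adjusted p under 0.05, with 637 at an unadjusted p under 0.05, of which 216 were higher and 421 lower in BPA. Between the sexes limma called 1 row (0.00738%), which was not a member, with 1442 at an unadjusted p under 0.05. Only 5 of the 10 members passed the filter on the mean and none of these 5 was called in either comparison by limma. Of the 5, Nts had an unadjusted p under 0.05, between the sexes only. For a single gene, the smallest two-sided p of an exact permutation test with 2 libraries on each side is 0.333.

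By the weaker criterion of libraries that do not overlap, Adcyap1 and Penk had both BPA libraries above both controls, as did 13.8% of all rows tested, and 0 of the 5 had both below, against 19.9% of rows. Between the sexes Pdyn had both males above both females, against 22.5% of rows, and Nts and Tac1 had both below, against 19.8%. These counts were the same after quantile normalization and after scaling by median-of-ratios factors. Within a sex none of the 5 reached an absolute log2 difference of 1, which 1.70% of rows reached in males and 2.32% in females. Rows with a gene ID, as the members have, reached it less often, 29 of 10857 in males and 70 of 10857 in females. The median BPA difference of the 5 was -0.03 in males and 0.29 in females, beside -0.00 and -0.04 over all rows.

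The receptors of these peptides were examined next. Of 24 receptor genes, 21 were listed and 11 had a mean of at least 1 FPKM. The PACAP receptor Adcyap1r1 was the most abundant, at 62.5 and 74.6 FPKM in control and BPA males and 62.8 and 71.1 FPKM in control and BPA females. It was higher in BPA in both sexes, as its ligand gene Adcyap1 was, with fragment ratios of 1.19 (1.14 to 1.25) in males and 1.13 (1.08 to 1.19) in females. With limma the difference of 0.21 (standard error 0.0947, adjusted p 0.973) did not pass.

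Of the neurotensin receptors, the signalling receptor Ntsr1 was at 5.47 and 5.39 FPKM in control and BPA males and at 4.93 and 6.85 FPKM in control and BPA females. As with Nts, its highest library was female BPA, and the female BPA to control ratio was 1.39 (1.15 to 1.69). The sorting receptor Sort1, which binds neurotensin among other ligands, lay between 31.9 and 36.1 FPKM and was lower in both BPA libraries, and Ntsr2 stayed below 1 FPKM. The limma difference of Ntsr1 between BPA and control was 0.19 (standard error 0.172, adjusted p 0.973).

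The galanin receptor Galr2 was at 5.99 and 3.76 FPKM in control and BPA males and at 5.51 and 4.37 FPKM in control and BPA females, well above the level of Gal itself. It was lower in both BPA libraries, with a ratio of the summed fragments of 0.704 (0.537 to 0.920) and a limma difference of -0.42 (standard error 0.165, unadjusted p 0.0412, adjusted p 0.973). Galr1 was at or below 0.10 FPKM, and Galr3 was listed for females only, also at or below 0.10 FPKM.

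Avpr1a, the main vasopressin receptor of the brain, was at 1.92 and 1.03 FPKM in control and BPA males and at 1.73 and 0.89 FPKM in control and BPA females. It was lower with BPA in both sexes, like Avp, from 49 fragments in control and 26 in BPA (ratio 0.527, counting interval 0.315 to 0.865), and limma gave -0.53 (standard error 0.242, adjusted p 0.973). Avpr2, the receptor of the kidney, differed in opposite directions in the sexes, at 0.43 and 1.08 FPKM in males and 1.31 and 0.54 FPKM in females. The oxytocin receptor Oxtr was nearly level, between 1.40 and 1.56 FPKM in all 4 libraries.

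The melanocortin receptor Mc4r, a target of the peptides of Pomc, was at 1.30 and 1.24 FPKM in control and BPA males and at 1.71 and 0.69 FPKM in control and BPA females, with a female ratio of 0.402 (0.180 to 0.837). The thyrotropin-releasing hormone receptor Trhr ranged from 0.20 to 0.45 FPKM. Avpr1b, Mc3r and Trhr2 have no row.

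Of the opioid receptors, the nociceptin receptor Oprl1, which does not bind the peptides of Penk or Pdyn with high affinity, was highest at 14.0 to 15.7 FPKM. The mu receptor gene Oprm1 was at 2.25 and 2.67 FPKM in the males and 1.44 and 1.73 FPKM in the females, with a male to female ratio of 1.54 (1.11 to 2.16) and a limma difference of 0.42 (standard error 0.223, adjusted p 0.554). Oprd1, the delta receptor at which enkephalins act, was likewise higher in males, at 0.75 and 0.92 FPKM against 0.17 and 0.08 FPKM. It rested on 20 fragments in males and 3 in females, and its mean was below the filter. Oprk1, the dynorphin receptor, was at 0.15 to 0.34 FPKM. Of the tachykinin receptors, the substance P receptor Tacr1 was at 2.28 to 2.97 FPKM, Tacr3 at 1.90 to 2.75 FPKM and Tacr2 at 0.23 to 0.63 FPKM.

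**Figure D4:**
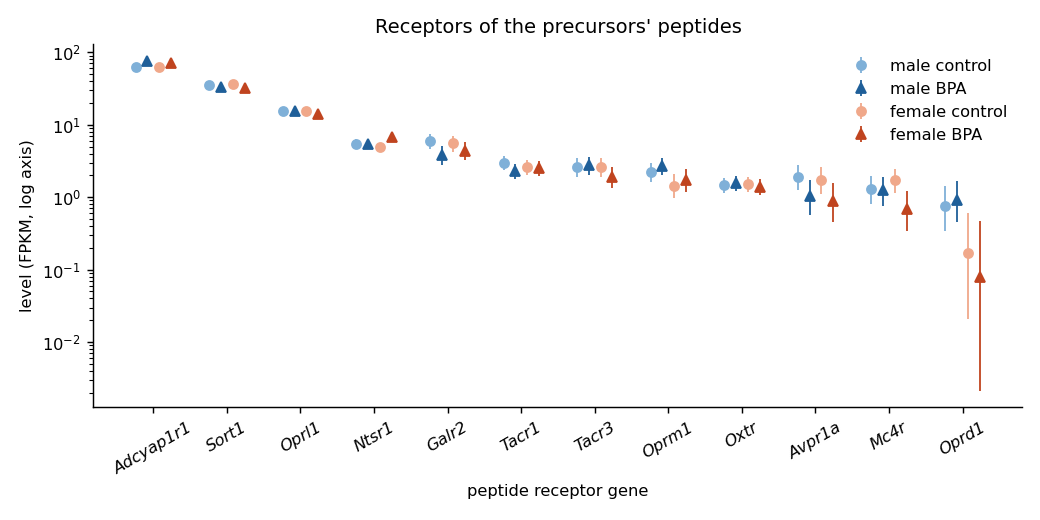
Level (FPKM, log axis) of the 11 peptide receptors with a mean of at least 1 FPKM and of Oprd1, with 95% Poisson intervals for counting error. Adcyap1r1 is highest at 62.5 to 74.6 FPKM, and Galr2 and Avpr1a are lower in the BPA library of each sex.

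Of the 11 receptors with a mean of at least 1 FPKM, Adcyap1r1 had both BPA libraries above both controls, and 5 (Sort1, Galr2, Tacr1, Avpr1a and Mc4r) had both below, beside 13.8% and 19.9% of all rows. Tacr1 overlapped after either quantile normalization or median-of-ratios scaling, which left 4 below, and Oxtr had both BPA libraries above after the former. The median BPA difference over the 11 was -0.02 in males and -0.15 in females. None of the 11 was called by limma in either comparison.

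The genes that mature and store the peptides were well expressed. Of 20 convertases, other processing enzymes, granins and vesicle proteins, 19 were listed, all 19 with a mean of at least 1 FPKM. Cpe, the carboxypeptidase that trims the cut peptides, was at 592 and 551 FPKM in control and BPA males and at 566 and 543 FPKM in control and BPA females. The convertase gene Pcsk2, which cuts at pairs of basic residues, was at 29.1, 24.3, 27.5 and 24.2 FPKM and its relative Pcsk1 at 1.13 to 1.78 FPKM. In 9 of the 19, Cpe, Pcsk1 and Pcsk2 among them, both BPA libraries were below both controls, against 19.9% of all rows, and Scg5 had both above, against 13.8%. Pcsk1 overlapped after quantile normalization and Cpe after median-of-ratios scaling, each of which left 8 of the 19. The median BPA difference was -0.10 in males and -0.07 in females, so these differences were small.

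Between the sexes 6 of the 19 had both males above both females, against 22.5% of all rows, and Scg3 had both below, against 19.8%. Of the 6, Chgb overlapped after quantile normalization. The widest gap was that of Pcsk1n, which encodes proSAAS, an inhibitor of the Pcsk1 convertase, at 281 and 250 FPKM in control and BPA males against 144 and 146 FPKM in control and BPA females. The male to female ratio of fragments was 1.84 (1.74 to 1.93), and the limma difference of 0.87 (standard error 0.0817) had an adjusted p of 0.0654, just short of the threshold.

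Of 10 peptide-degrading enzymes all were listed and 9 had a mean of at least 1 FPKM. Prep, a prolyl peptidase, was at 38.7 and 30.9 FPKM in control and BPA males and at 36.5 and 31.0 FPKM in control and BPA females (limma difference -0.27, standard error 0.102, adjusted p 0.973). Nln and Thop1, which cleave neurotensin among other peptides, lay between 30.4 and 32.9 FPKM and between 25.5 and 32.8 FPKM. In 5 of the 9 both BPA libraries were below both controls, against 19.9% of all rows, and in 0 both were above, against 13.8%. After either scaling 4 of the 9 were below, without Mme. Trhde, the enzyme that inactivates thyrotropin-releasing hormone, was at 2.91, 2.82, 3.72 and 2.30 FPKM.

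Penk, Pdyn and Tac1 are abundant in the striatum and amygdala, and Nts and Adcyap1 are transcribed in several regions around the hippocampus, so markers of these tissues were set beside them. Of 12 striatal and amygdala genes all were listed, with sums of 19.6 to 19.8 FPKM in males and 21.3 to 21.6 FPKM in females. Ppp1r1b was the highest, at 6.70 to 8.50 FPKM. Of the 6 genes with a mean of at least 1 FPKM, 2 had both BPA libraries above both controls, as Penk did, against 13.8% of all rows, and 0 had both below, against 19.9%. Their median BPA difference was 0.08 in males and -0.13 in females. Among markers of the enkephalin neurons of the striatum, Drd2 was at 1.89 and 2.54 FPKM in control and BPA males and 2.15 and 3.07 FPKM in control and BPA females, while Adora2a was at 1.95 and 2.03 FPKM in the males and 3.13 and 2.54 FPKM in the females. Drd1, a marker of the striatal neurons with Tac1 and Pdyn, was at 0.23 to 0.55 FPKM. The part of such cells in the level of Penk was not tested.

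Of 10 thalamic and habenular genes 7 were listed, with sums of 58.7 to 66.1 FPKM, mostly from Nr4a2 (30.3 to 41.5 FPKM) and Slc17a6 (13.7 to 18.3 FPKM), which other neurons also transcribe. Nr4a2 was highest in female BPA, the same library as Nts. The 5 genes of this list with a mean of at least 1 FPKM had a median BPA difference of -0.26 in females. Lhx9, Prkcd and Tcf7l2 were lowest in female BPA, at 4.36, 4.64 and 1.16 FPKM. The part of such cells in the level of Nts was not tested. The 9 interneuron genes summed to 145 to 186 FPKM, and the 6 listed of 8 Cajal-Retzius genes to 127 to 158 FPKM.

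The libraries differed most in markers of the choroid plexus and the meninges. The 9 choroid plexus genes summed to 269 and 712 FPKM in control and BPA males and 11.3 and 49.2 FPKM in control and BPA females, chiefly through Ttr. The 8 meningeal and vessel wall genes summed to 96.1 to 100 FPKM in males, 367 FPKM in female control and 78.7 FPKM in female BPA, with 209 FPKM of Ptgds in female control. The 11 listed hippocampal excitatory genes, of 12, summed to 602 to 711 FPKM, and 9 general neuron and glia genes, led by Tubb3, to 1562 to 1753 FPKM.

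**Figure D5:**
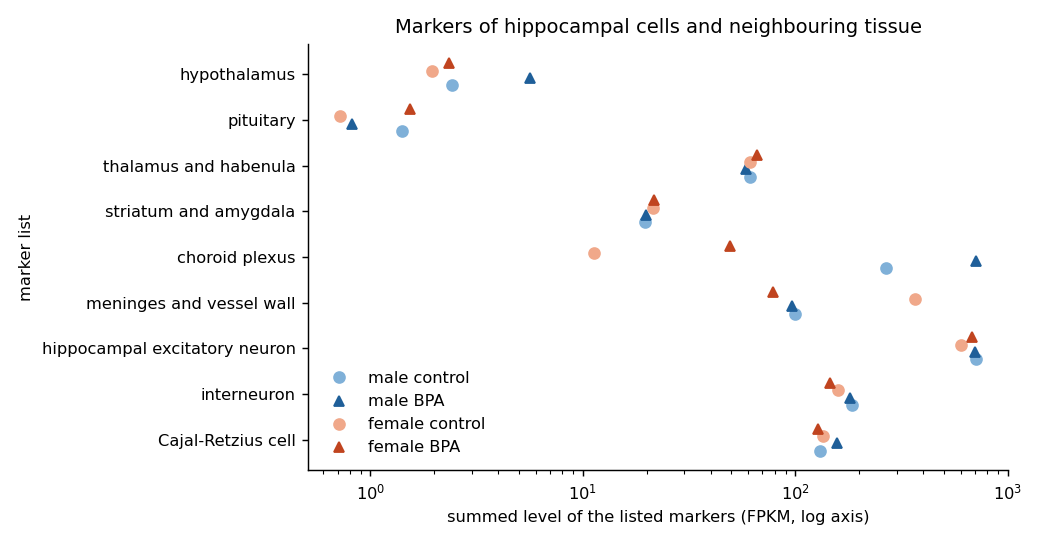
Summed level (FPKM, log axis) of the listed genes of 9 marker lists in each library. The hypothalamic and pituitary sums stay below 6 FPKM, the choroid plexus sum ranges from 11.3 to 712 FPKM, and the striatal, thalamic, interneuron and hippocampal sums differ less.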

How the data were processed

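RNA-seq had been run on the neonatal hippocampus with 1 pooled library per sex and treatment. The authors deposited 1 FPKM value per gene and library, with a gene length, and the submitters' processing notes name HISAT 0.1.6, Bowtie2 2.2.5, RSEM and the build rn6 without giving their roles. The 4 files were joined on the row identifier. The members and all gene lists were chosen with earlier results of these data known. Besides the members and their receptors, the rule for named genes took the 3 highest of each other list and those past an absolute log2 difference of 1 with a mean of at least 1 FPKM. Other list genes, such as Prox1, Otp, Fezf1, Adora2a, Drd1, Drd2, Lhx9, Tcf7l2, Pcsk1, Pcsk2, Scg5, Chgb, Mme and Trhde, were named for their role after their values were seen.

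Fragments were estimated from the steps of low values (rows of 300 to 1500 bases, fewer than 6 fragments, tolerance 0.15). Between 95.4% and 98.6% of such values were within this tolerance of a whole number. Poisson and exact conditional binomial 95% intervals were computed from these fragments in scipy 1.17.1. They compare libraries and cover counting error only, since reads without molecular identifiers are not independent molecules. BPA and control, and males and females, were compared over 2 libraries a side with limma 3.58.1 (eBayes with trend) in R 4.3.3 on log2(FPKM + 1) with Benjamini-Hochberg adjustment, leaving out every row whose mean was under 1 FPKM. This scale understates the differences of low genes. Within a sex there is no replicate and no test was made, and each p-value measures the spread between libraries of different sex or treatment. The fit and the depth estimate were tested on simulated data. The protein sequences planned for display were not used here, and promoters from RefSeq were shown in their place. Some genes of the marker lists are not reported here by name.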

Additional observations from a re-analysis of the deposited data

Results flagged for a closer look

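For 3 precursors the BPA minus control difference had opposite signs in the sexes, and because each sex has 1 library per treatment this was not tested. The female difference of Gal exceeded the male one by 0.72 on the scale of log2(FPKM + 1), with -0.38 in males and 0.34 in females, from 1 to 4 fragments a library. For Nts the gap was 0.38, with -0.07 in males and 0.31 in females, and this is the only one of the 3 with more than 100 fragments in each library. For Pdyn it was 0.17, with -0.04 and 0.13.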

How the results depend on the processing

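Rows called by limma for BPA against control went from 0 to 2 with sex as a covariate, and from 0 to 3 when libraries were left out in turn (3 without female control, 1 without male BPA). Between the sexes they went from 1 to 21 at a mean of at least 5 FPKM and to 55 with treatment as a covariate, and from 1 to 2 when libraries were left out (2 without female control). Rows past an absolute log2 difference of 1 went from 230 to 483 in males and from 314 to 590 in females with 0.1 added in place of 1, and to 26 and 62 at a mean of at least 5 FPKM. The causes of these moves were not tested. The lone library of a side was assumed to vary like the others.

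No member was called in any setting in which it was tested. Avp, Pomc, Trh and Gal were tested only without the filter on the mean, and Oxt was never tested. Penk and Pdyn were not tested at a mean of at least 5 FPKM. With libraries left out in turn, the BPA difference on the log2 scale ran from -0.14 (without female control) to 0.23 for Pdyn, which was also -0.05 without male BPA, from -0.21 to 0.04 (without female control) for Tac1 and from -0.14 (without female BPA) to 0.38 for Nts. The sex difference ran from -0.47 to 0.04 (without female BPA) for Penk and from -0.04 (without male BPA) to 0.36 for Adcyap1. The other 90 member values from limma kept their direction. Within a sex the low members depended on the added value: with 0.1 the difference became -3.44 for male and -0.75 for female Avp, -1.30 for male Pomc, -1.19 for male and 0.83 for female Gal, and 1.18 for male and 0.53 for female Trh. Without the length offset Nts had 774 to 1097 fragments. Counts of members whose libraries do not overlap, under scalings chosen after seeing the data, were the same. No row of a new gene model names a member protein, so sums with such models could not be made. Depth limits Oxt, Avp, Pomc, Trh and Gal, which had 11 fragments or fewer per library.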

Other observations

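Of 40 other neuropeptide precursor genes 28 were listed and 12 had a mean of at least 1 FPKM. The highest were Cck, Npy and Sst, peptide genes of interneurons and, for Cck, of pyramidal neurons as well. Cck was at 176 and 149 FPKM in control and BPA males against 108 and 134 FPKM in control and BPA females (limma male minus female difference 0.43, standard error 0.125, adjusted p 0.359), Npy at 51.0 to 62.7 FPKM and Sst at 58.7 to 58.9 FPKM in males and 45.2 to 47.2 FPKM in females. Of the 12, both BPA libraries were below both controls for Vip, Pnoc and Nucb2, against 19.9% of all rows, and above them for 0, against 13.8%. Nucb2 overlapped after quantile normalization and after median-of-ratios scaling.

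Crh and Grp, named here after their values were seen, differed in opposite directions in the sexes. Crh, the precursor of corticotropin-releasing hormone, was at 1.00 and 2.61 FPKM in control and BPA males and 1.93 and 1.01 FPKM in control and BPA females, with BPA to control fragment ratios of 2.61 (1.22 to 6.06) and 0.521 (0.216 to 1.18). Grp, the precursor of gastrin-releasing peptide, was at 5.26 and 8.92 FPKM in the males and 7.29 and 6.28 FPKM in the females, with ratios of 1.70 (1.12 to 2.60) and 0.859 (0.563 to 1.31). The intervals cover counting error only, and neither gene passed in limma for BPA against control (adjusted p 0.988 for Crh and 0.973 for Grp).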
